A study of Mus musculus with 3 samples.

Results

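Unspliced unannotated transcript loci are stretches of the mouse genome where RNA-seq reads of the heart ventricle were assembled into a transcript with a single exon that the deposited annotation classed as unknown and intergenic. The members were chosen from the deposited annotation as the loci whose transcripts all carried the class code u and all had exactly 1 exon. Of 48617 loci with transcripts in the annotation, 22805 were members, and each held 1 transcript. The choice used no expression value, but a locus entered the annotation only where reads were assembled. A further 545 loci held class u transcripts with at least 1 spliced form and are used below for comparison, as are 20117 loci with a transcript matched to a RefSeq protein-coding transcript, called coding loci.

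The RNA was total RNA from the heart ventricle of C57BL/6 mice at the embryonic stages E10.5 and E13.5 and in the adult at 8 weeks (Adult). The mice were given with no transgene or treatment. Each stage was 1 library made with a strand-specific total RNA kit, so a value is that of a single library, no test between stages was possible, and stage, animal and library cannot be told apart. The unit was FPKM, the number of fragments scaled to transcript length and library size, and in bulk tissue fewer cells of a type and less RNA per cell cannot be told apart. The ventricle cardiomyocyte genes Myl2, Tnnt2, Actc1, Ryr2 and Tnni3 had medians of 626, 1522 and 3353 FPKM in the E10.5, E13.5 and Adult libraries. Myl2, Tnnt2 and Tnni3 were higher in both later libraries than at E10.5. By contrast Actc1 (4487, 4646 and 3353 FPKM) was lowest in Adult, and Ryr2 (73.1, 18.8 and 281 FPKM) was lowest at E13.5. The genes listed as atrial, Myl7, Myl4, Sln and Nppa, had medians of 1954, 2160 and 1.16 FPKM. Whether these values reflect atrial tissue in the libraries was not tested. From E10.5 to E13.5 Myl4 and Nppa were higher, whereas Myl7 (2453 and 1935 FPKM) and Sln (21.3 and 7.11 FPKM) were lower. The erythroid genes Hbb-y, Hbb-bh1, Hba-x and Alas2 had medians of 1185, 597 and 1.48 FPKM (summed 6745, 16339 and 22.6 FPKM, the rise at E13.5 being mostly that of Hbb-y). Alas2 alone had 18.2, 34.1 and 19.6 FPKM, so the drop from E10.5 to Adult was that of the globin genes Hbb-y, Hbb-bh1 and Hba-x. The macrophage genes had medians of 1.05, 4.10 and 19.7 FPKM. The part of these differences in the results below was not tested.

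Transcripts without introns that lie between genes have several known sources. RNA polymerase II continues past the cleavage site at the end of a gene, and the RNA made there is unspliced and normally short-lived. Active promoters and enhancers give off short RNAs, at promoters often on the strand opposite to the gene. Retrocopies, or processed pseudogenes, arise when an mRNA is copied back into the genome, so that they lack introns and keep the sequence of the parent gene. A total RNA library, unlike one selected for poly(A) tails, also records RNA that is unprocessed or still in the nucleus.

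The members with the highest FPKM were mostly short stretches nearly identical to coding transcripts of other genes. FPKM is coarse at such lengths, as given below. The 7 printed here are shown because they were among the 3 highest members upstream, downstream or distant from genes and are short enough to print whole. They are in GRCm38, 5′ to 3′ on the strand of the locus. Capitals mark the bases that differ from the best-matching GENCODE coding transcript or fall outside its alignment, and the member matched to Sumo2 runs antisense to that transcript.
XLOC_047825 (chrX:11683973-11684074, minus strand, Rps3): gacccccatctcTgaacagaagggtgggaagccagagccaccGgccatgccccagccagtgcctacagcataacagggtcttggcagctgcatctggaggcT
XLOC_046173 (chr9:49079032-49079140, minus strand, Rps14): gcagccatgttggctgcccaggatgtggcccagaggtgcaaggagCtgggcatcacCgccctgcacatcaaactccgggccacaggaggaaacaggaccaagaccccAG
XLOC_012261 (chr13:54499610-54499776, minus strand, Rps24): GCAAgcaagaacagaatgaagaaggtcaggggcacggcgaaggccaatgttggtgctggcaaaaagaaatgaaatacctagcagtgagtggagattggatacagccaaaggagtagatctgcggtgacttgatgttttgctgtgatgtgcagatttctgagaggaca
XLOC_016512 (chr16:17137287-17137401, plus strand, Rps20): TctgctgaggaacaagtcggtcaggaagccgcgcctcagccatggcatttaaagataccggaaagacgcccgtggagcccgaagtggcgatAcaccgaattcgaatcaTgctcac
XLOC_047687 (chrX:153783430-153783538, plus strand, Sumo3): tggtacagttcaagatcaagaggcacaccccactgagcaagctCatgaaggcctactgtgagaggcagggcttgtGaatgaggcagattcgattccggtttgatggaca
XLOC_022326 (chr19:54444996-54445101, plus strand, Gtf2b): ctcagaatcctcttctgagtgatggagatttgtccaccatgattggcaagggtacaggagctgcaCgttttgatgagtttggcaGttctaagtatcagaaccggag
XLOC_007025 (chr11:6453220-6453331, minus strand, Sumo2): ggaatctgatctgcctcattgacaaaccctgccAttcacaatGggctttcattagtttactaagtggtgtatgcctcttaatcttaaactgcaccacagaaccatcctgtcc

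Between 2 and 4 bases of each of these members were in capitals. Rps3, Rps14, Rps20 and Rps24 encode proteins of the small ribosomal subunit, Sumo2 and Sumo3 encode small modifiers that are joined to other proteins, and Gtf2b encodes a general transcription factor.

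The members were short. Their median length was 890 nt (95% interval 883 to 896, over loci), with quartiles of 657 and 1213 nt and a range of 102 to 35039 nt. There were 166 members under 200 nt and 1778 of 2000 nt or more. The spliced class u loci had a median transcript length of 1230 nt (1156 to 1317). A strand was assigned to all but 57 members, 11008 on the plus and 11740 on the minus strand.

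Most members lay far from coding transcripts. Position was taken from the nearest RefSeq coding transcript, on that transcript's strand, and a member more than 10000 bp away was called distant. By this rule 15598 members (68.4%) were distant, 3715 (16.3%) downstream and 3441 (15.1%) upstream. Another 50 (0.219%) lay within or overlapped the span of a coding transcript, all on its opposite strand. The remaining 1 lay on the mitochondrial chromosome, which has no RefSeq coding transcript in this annotation. The median distance over all members was 31087 bp, and 293 members were more than 1 Mb from any coding transcript. The spliced class u loci were upstream in 28.6%, downstream in 12.7% and distant in 58.7% of cases, so the share upstream was higher among spliced than among unspliced loci.

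Strand went with position. Downstream members were on the strand of the gene in 2818 cases and opposite to it in 896 (75.9% on the strand, interval 74.5 to 77.2%), against 39.8% (38.1 to 41.4%) of upstream members and 61.2% (60.4 to 61.9%) of distant members. Spliced class u loci downstream of a gene were on its strand in 30 of 69 cases (43.5%, 32.4 to 55.2%). Hence the unspliced loci behind genes mostly continued the strand of the gene, whereas the interval of the spliced loci included an equal split.

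**Figure D1:**
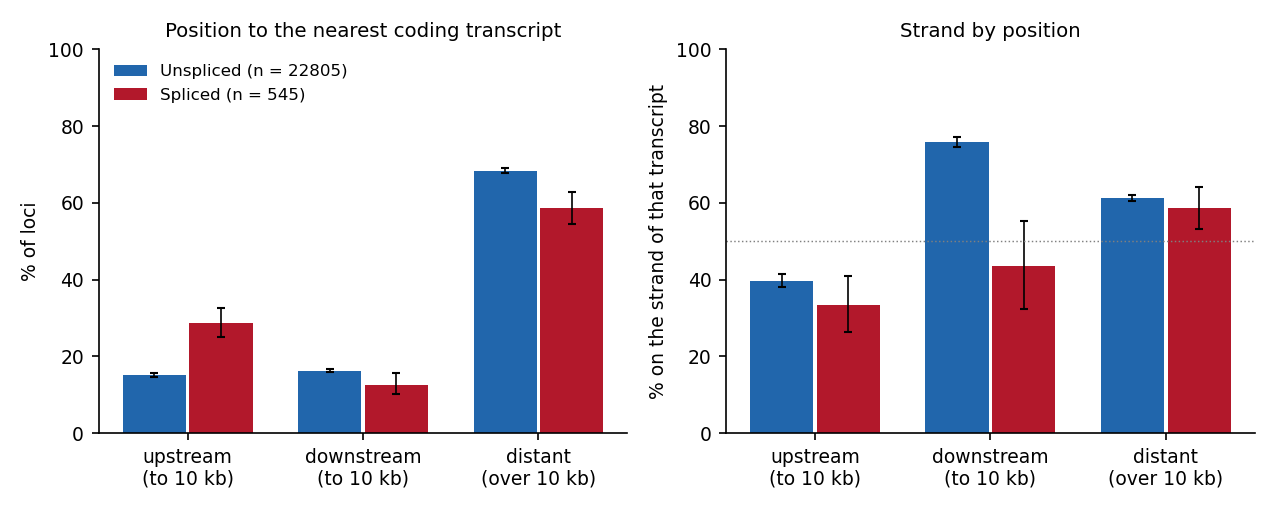
Left, percentage of unspliced (blue, 22805) and spliced (red, 545) class u loci upstream, downstream or distant from the nearest coding transcript; right, percentage of those loci on the strand of that transcript, with 95% Wilson intervals over loci and a dotted line at 50%. The unspliced downstream bar stands at 75.9% on the right, above the spliced one at 43.5%.

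Coding genes could carry several members in a row. There were 2461 genes with at least 1 downstream member and 294 with 3 or more. The 5 genes with the most were Lrrn3 with 9 and A530032D15Rik, Cwc22, Hnrnpd and Strn with 7 each. All 7 downstream members of each of Cwc22 (a splicing factor), Hnrnpd (an AU-rich element RNA-binding protein) and Strn (the scaffold protein striatin) were on the gene's strand. The 9 behind Lrrn3 were on the opposite strand, within the GENCODE body of Immp2l (chr12), whose span encloses them.

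The members that the deposited annotation left unnamed were in part known to GENCODE M21. On their own strand 2389 members (10.48%) overlapped a GENCODE exon. Of these, 1125 lay at pseudogene exons (985 at processed pseudogenes), 751 at exons of long non-coding RNAs or loci awaiting experimental support, 479 at coding exons and 34 at other types. A further 5616 (24.6%) lay in a gene body on their strand but at no exon, 3780 of them in protein-coding genes and 1053 in lincRNA genes. The remaining 14800 (64.9%) were outside every gene body of their strand. Another member overlapped on the opposite strand at 410 loci.

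By sequence, 891 members (3.91%) matched a GENCODE coding transcript of a gene elsewhere, at 90% identity or more over at least 80% of the member. Their median identity was 98.2%, and 871 ran in the sense direction of the matched transcript. Pseudogene exons held 757 of them, while 104 were at no GENCODE exon of their strand. Ribosomal protein genes, with symbols starting in Rpl or Rps, were the match of 78. The genes matched most often were Odc1, the first enzyme of polyamine synthesis, with 9 members, and Rpsa, a ribosomal protein gene, with 7. Eef1a1, a translation elongation factor, and Setd3, a histidine methyltransferase of actin, were matched by 6 each.

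The assembled ends of the members mostly lacked the sequence that marks the end of most mRNAs. A member ends where its assembled reads stopped, which need not be the 3′ end of an RNA, whereas coding loci follow the reference. The poly(A) signal AATAAA, searched on the transcript strand only, occurred in the last 50 nt of 53.7% of 29206 coding transcripts. It occurred in the last 50 nt of 914 members (4.01%), and in the first 50 nt of 3.08%. By position the share was 3.73% for downstream members on the gene's strand, 2.85% for upstream and 4.01% for distant ones on it. Members at pseudogene exons held it in 7.82% of cases. The members' median GC content was 43.2%, and the median share of repeat-masked bases was 16.2%.

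At E10.5, 5535 members (24.3%, interval 23.7 to 24.8%) reached 1 FPKM. At E13.5, 1668 did (7.31%, 6.98 to 7.66%), and in Adult 8215 (36.02%, 35.4 to 36.6%). The shares of coding loci at this limit were 56.2%, 57.7% and 55.5%. Those of the spliced class u loci were 36.3%, 36.1% and 51.9%, also highest in Adult but nearly equal at E10.5 and E13.5. Thus the unspliced loci differed between the libraries by more than the coding loci did, with E13.5 lowest and Adult highest. The members owe their place in the annotation to assembled reads, whereas coding loci follow the reference. Part of this difference can therefore come from how the loci were found. With the libraries rescaled by median-of-ratios factors over coding loci, the members' shares were 22.9%, 6.33% and 47.5%, in the same order. The 95% intervals are Wilson intervals over loci and say nothing of the variation between animals.

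Few members reached 1 FPKM in more than 1 library. In total 11951 members (52.4%) reached 1 FPKM in at least 1 library, of which 6029 did so in Adult alone, 3265 at E10.5 alone and 257 at E13.5 alone. Only 1067 (4.68%) did so in all 3 libraries, against 50.04% of coding loci. A member could enter through the reads of a single library, so this contrast with reference loci is partly set by the choice of members. Of those 1067 members, 61.5% matched a coding transcript elsewhere, compared with 0.332% of the members found in Adult alone and 2.33% of those at E10.5 alone. Of the members found at E10.5 alone 84.8% were on the strand of the nearest gene, while 56.3% of those in Adult alone and 42.6% of those at E13.5 alone were.

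The level of a typical member was low. Over all members the medians of the E10.5, E13.5 and Adult libraries were 0.165, 0.0688 and 0.768 FPKM, against 2.58, 2.78 and 1.97 FPKM for coding loci. Exact zeros were given for 30.1%, 30.8% and 4.87% of the members. From the lowest steps of the values, 1 FPKM at the median length corresponded to roughly 12.3, 23.7 and 17.0 fragments, an approximate depth, since the assembler's corrections are not stated. Values for short loci were coarser. Among the 61 members under 150 nt the lowest values above 0 in the 3 libraries were 12.6, 24.7 and 2.37 FPKM, whereas for members of 500 to 999 nt it was 0.0243, 0.0156 and 0.0259 FPKM. An exact 0 can be a failed estimate, since the mitochondrial member (chrM:2-16297, 1167 FPKM at E10.5) was listed at 0 in the other 2 libraries. No fold is therefore given against such values, but the counts and medians of changes and the comparisons of pairs below include loci listed at 0.

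Position and strand together separated the libraries. Downstream of a gene and on its strand, the share of members that reached 1 FPKM was 47.1% (45.3 to 48.97%) in the E10.5 library. It was 3.90% (3.25 to 4.68%) in the E13.5 library and 20.7% (19.2 to 22.2%) in Adult. Downstream but on the opposite strand the shares were 25.3%, 10.7% and 26.6%. Thus E10.5 was the highest library for the continued strand by a wide margin, while for the other strand the reported E10.5 and Adult shares lay close together. Under the rescaling the shares on the gene's strand were 43.9%, 3.02% and 30.6%, and on the opposite strand 23.4%, 9.82% and 38.1%. The closeness of E10.5 and Adult on the opposite strand thus depended on the scaling, and Adult was highest there after rescaling.

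Upstream of a gene, 30.3% of members on its strand and 14.5% of those on the opposite strand reached 1 FPKM at E10.5. At E13.5 these shares were 11.2% and 13.52%, and in Adult both were 37.1%. After rescaling, the E13.5 shares on the same and the opposite strand were 10.1% and 10.3%. Divergent promoter RNAs are known to arise within 1000 bp of the gene on that side, opposite to its strand. Of 874 members placed there, 170 (19.5%) reached 1 FPKM at E13.5, 16.5% at E10.5 and 40.5% in Adult. On the strand of the gene at that distance lay 313 members, of which 17.3% reached 1 FPKM at E13.5, 37.1% at E10.5 and 33.5% in Adult. Of the 1428 members whose highest value was at E13.5, 34.3% were upstream, compared with 12.5% of those highest at E10.5 and 14.2% of those highest in Adult.

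Distant members followed the strand of the nearest gene at E10.5 as well. There 26.8% of those on its strand and 11.6% of those on the opposite strand reached 1 FPKM. In Adult the shares were 39.3% and 38.6%, and at E13.5 they were 5.93% and 7.57%. The strands thus lay far apart in the E10.5 library, while in the others the shares differed by less than 2 percentage points.

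The distance over which the E10.5 signal extended was read in bins. Behind genes on their strand, 49.5% of members up to 1000 bp away, 44.0% from there to 3000 bp, 48.0% to 10000 bp and 45.7% to 30000 bp reached 1 FPKM at E10.5. The share then fell to 24.2% between 30 and 100 kb and to 11.9% farther out. In Adult the same bins gave 32.2%, 20.4%, 19.1%, 20.7%, 30.5% and 43.0%, and at E13.5 none was above 5.86%. The E10.5 share was thus nearly level out to 30 kb, beyond the limit that defined the downstream class, and the Adult share was highest far from genes.

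**Figure D2:**
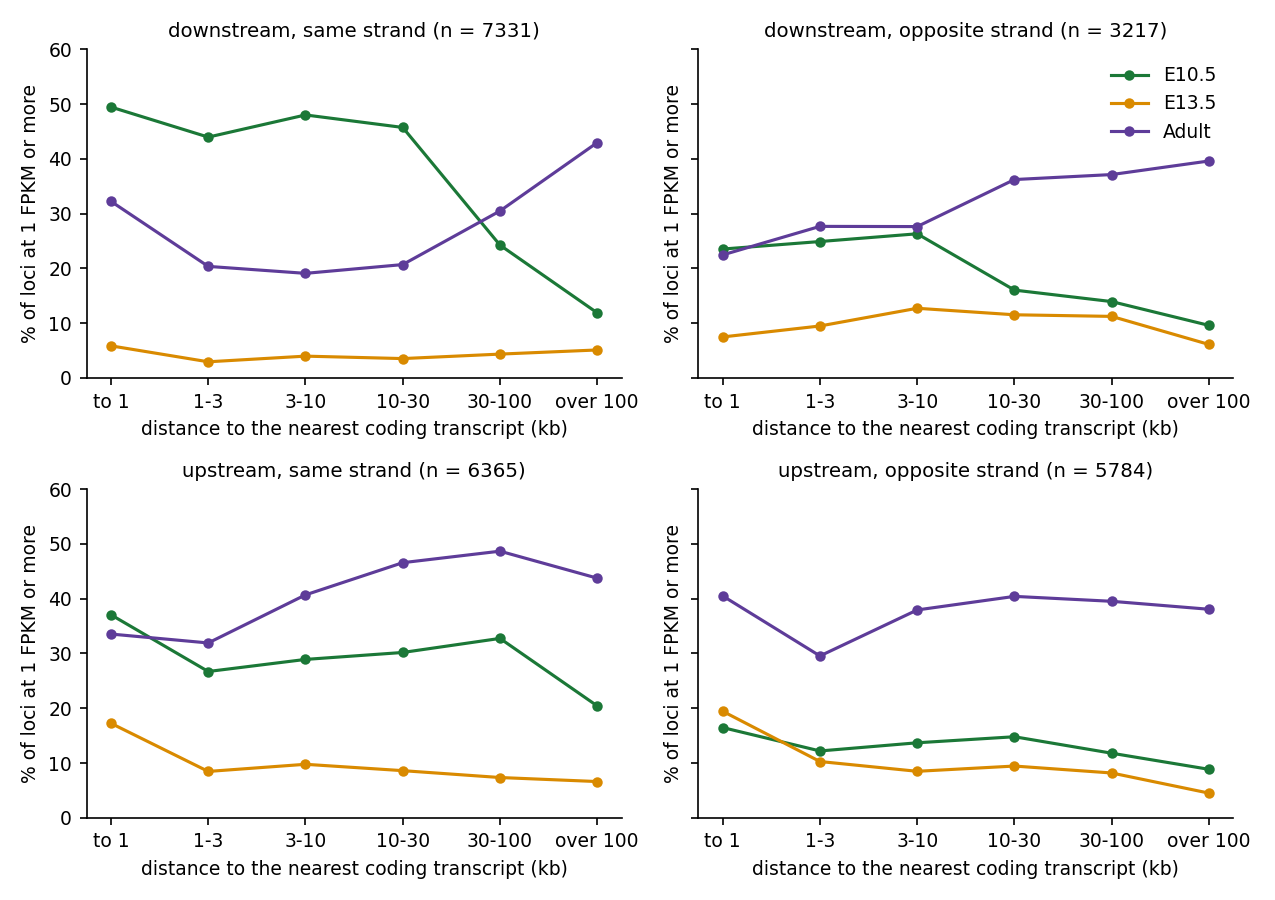
Percentage of members at 1 FPKM or more (vertical axis) by distance to the nearest coding transcript (horizontal axis, kb) in each library, split by side and by strand relative to that transcript. The E10.5 line stays between 44.0% and 49.5% out to 30 kb downstream on the gene's strand and drops to 11.9% beyond 100 kb; the E13.5 line is lowest in most bins.

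The level of the gene in front went with that of the member at E10.5. For downstream members on the gene's strand, 7.81% (15 of 192) reached 1 FPKM at E10.5 where the gene was above 0 and under 1 FPKM. The share was 27.1% for genes of 1 to 10 FPKM, 59.8% for genes of 10 to 100 FPKM and 69.9% for genes of 100 FPKM or more. In the E13.5 library the same steps gave 7.03%, 4.16%, 2.97% and 4.58%, and in Adult 18.9%, 19.4%, 21.2% and 26.3%. Where the gene itself was listed at 0, the shares were 15.4% (10 of 65), 12.96% (7 of 54) and 31.2% (15 of 48) in the E10.5, E13.5 and Adult libraries, above those of the next step. Among genes above 0 the downstream gradient was thus steep in the E10.5 library, and in the others the shares of all steps lay within 8 percentage points. Upstream on the gene's strand the same steps gave 19.3%, 27.9%, 42.5% and 39.4% at E10.5. In Adult they gave 27.1%, 35.1%, 45.2% and 65.0% (26 of 40), so a rise with gene level was also seen outside E10.5. Upstream on the opposite strand Adult gave 26.3%, 33.6%, 42.9% and 42.9%, while E10.5 stayed between 13.1% and 15.4%.

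For downstream members on the gene's strand, member and gene level were also compared by Spearman's correlation coefficient where both values were above 0. It was 0.37 at E10.5 (2547 pairs), 0.05 at E13.5 (2177 pairs) and 0.04 in Adult (2535 pairs). The pairs of a library share its depth, and a gene with several members enters several times. The member's FPKM was a median of 5.46%, 1.04% and 4.91% of that of the gene. On the opposite strand the E10.5 coefficient was -0.12 over 543 pairs.

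**Figure D3:**
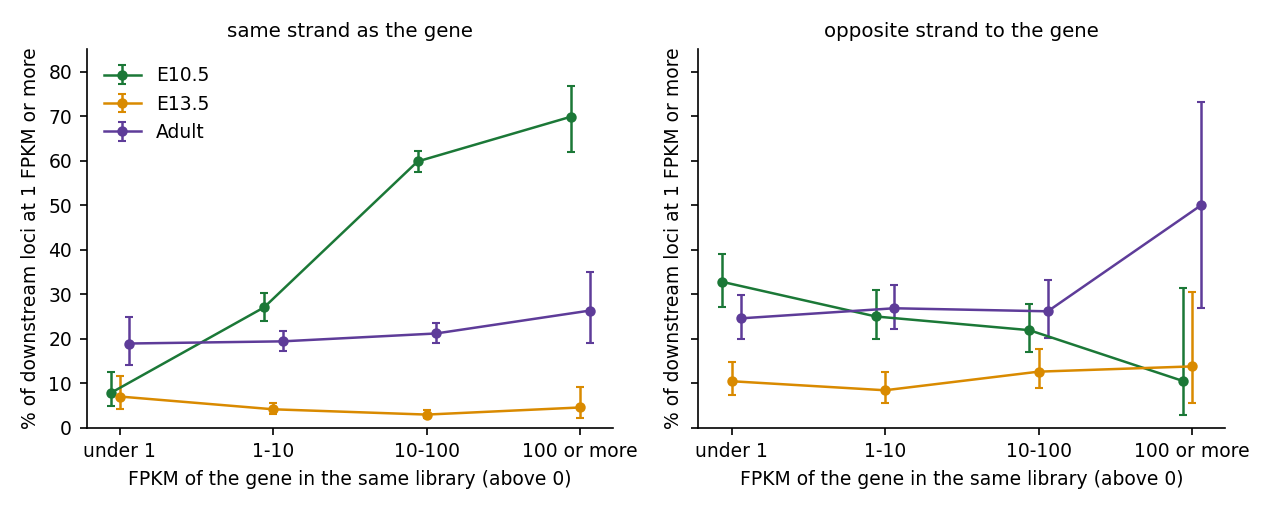
Percentage of downstream members at 1 FPKM or more (vertical axis) by the FPKM of their gene in the same library (horizontal axis, genes above 0), for members on the gene's strand (left) and on the opposite strand (right), with 95% Wilson intervals over loci. On the left the E10.5 line climbs from 7.81% to 69.9%, while the Adult line runs from 18.9% to 26.3%.

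The chain behind Cwc22 on chr2 shows the pattern at a single gene. Its 7 members, between 265 and 1101 nt long and up to 9832 bp behind the RefSeq end, ranged from 3.12 to 12.04 FPKM at E10.5, and none exceeded 0.256 FPKM at E13.5 or 0.218 FPKM in Adult. All 7 were higher at E10.5 than in either other library. Cwc22 itself had 48.4, 6.04 and 4.11 FPKM, and the members lay within the longer GENCODE body of the same gene.

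In the same order of libraries, the 7 members behind Strn had 0.991 to 4.14, 0 to 0.891 and 0 to 1.67 FPKM, beside 30.3, 21.6 and 15.5 FPKM for the gene. Those behind Hnrnpd had 1.23 to 2.23, 0 to 0.255 and 0 to 1.55 FPKM, beside 24.9, 8.66 and 6.37 FPKM for the gene. Each of these 14 members was highest at E10.5. By contrast the 7 behind A530032D15Rik, on both strands, had 0.973 to 2.43 FPKM in Adult and at most 0.612 FPKM in the embryo. The 9 opposite-strand members behind Lrrn3 had 0.757 to 2.07, 0 to 0.374 and 1.08 to 4.36 FPKM, so that no single order of stages held across the chains.

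Changes between stages were taken as differences of log2(FPKM + 1) among the 11951 members that reached 1 FPKM in any library, and counted from a size of 2, a limit of size and not a test. This scale understates the change of low loci. From E10.5 to E13.5, 29 members were higher and 448 lower by this limit. Over all 26910 loci so expressed, 0.561% were higher and 2.14% lower, against 0.243% and 3.75% of the members. From E13.5 to Adult, 678 members (5.67%) were higher and 243 (2.03%) lower, beside 5.51% and 5.82% of all loci. From E10.5 to Adult, 420 (3.51%) were higher and 472 (3.95%) lower, beside 4.96% and 5.93%. The share of members past the limit exceeded that of all loci most for the falls from E10.5 to E13.5, and members make up part of all loci.

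The direction of the typical member depended on its place. The median change of members was -0.24 from E10.5 to E13.5, 0.91 from E13.5 to Adult and 0.64 from E10.5 to Adult. For coding loci it was 0.17, -0.50 and -0.40. Rescaling by coding loci moved the median of all loci from E10.5 to Adult from -0.09 to 0.46, so changes are best read relative to the coding median. On that footing the members were lower by a median of 0.41 at E13.5 than at E10.5 (0.19 after rescaling) and 1.04 above it from E10.5 to Adult (1.00 after rescaling). Downstream members on the gene's strand stood at -1.21 from E10.5 to E13.5 (-1.01 rescaled) and at -0.43 from E10.5 to Adult (-0.46 rescaled), also relative to the coding median. Distant members on the strand of the nearest gene stood at 1.10 from E10.5 to Adult (1.04 rescaled). The split of calls also moved with the scaling. It became 1132 higher and 131 lower from E13.5 to Adult, and 719 higher and 370 lower from E10.5 to Adult. The matching shares over all loci were not calculated.

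Downstream members and their genes were then compared pair by pair, where both reached 1 FPKM in at least 1 library. From E10.5 to Adult, 1303 of 1669 same-strand pairs (78.1%, 76.02 to 79.99%) moved in the same direction, with Pearson's and Spearman's correlation coefficients of 0.50 across pairs. In these pairs 71.8% of the genes and 74.7% of the members were lower in Adult, so part of the shared direction is common to most loci of both kinds. The pairs came from 1105 coding loci. On the opposite strand, 130 of 247 pairs (52.6%, 46.4 to 58.8%) moved together, with a Pearson coefficient of 0.04. Upstream the shares were 65.1% on the strand of the gene (634 pairs) and 49.05% on the opposite strand (946 pairs). Rescaling gave 71.9% for the downstream same-strand pairs.

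The other contrasts gave less shared direction. From E10.5 to E13.5, 59.9% of the downstream same-strand pairs moved together, while 89.8% of the members and 56.9% of the genes were lower. From E13.5 to Adult the share was 48.1%, with 17.5% of members and 62.9% of genes lower, and 62.9% of pairs moved together after rescaling. Across pairs Pearson's coefficient was 0.34 and 0.38 in these contrasts. The members' common shift between libraries thus differed from that of the genes in both contrasts that include E13.5.

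**Figure D4:**
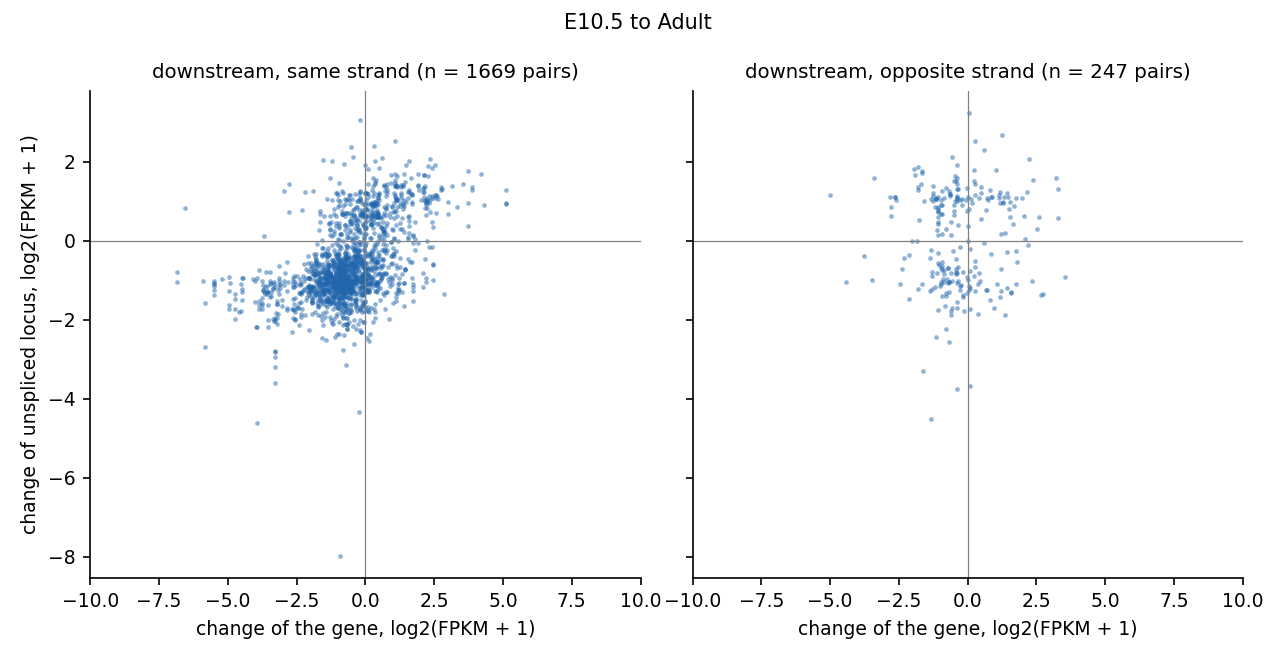
Change of log2(FPKM + 1) from E10.5 to Adult of downstream members (vertical axis) and of the gene in front (horizontal axis), for pairs on the same strand (left, 1669 pairs) and on opposite strands (right, 247 pairs). On the left most points lie where both are lower and 78.1% of pairs share a direction; on the right 52.6% do.

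Genes of the heart were examined through fixed lists, taking members within 10000 bp. Over all 20421 coding genes 4407 (21.6%) had such a member. Of 16 cardiac transcription factor genes 8 had one, with 22 members in all, 14 of them upstream. The list holds genes that the study itself discussed from these libraries, so this count is no independent evidence. Of 19 contractile genes 7 had a member (17 members), of 10 calcium handling and excitation genes 4 (11 members) and of 10 energy metabolism genes 2 (4 members). Of 10 proliferation genes 4 had one, of 7 erythroid genes found 1 and of 8 imprinted or fetal growth genes found 2. Among all these members, a change of 2 or more was seen at the 3 next to Myh7 and at 1 upstream of Gata6, the latter from E10.5 to E13.5.

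Hand2, a bHLH transcription factor of the right ventricle and outflow tract, had the most members of these genes. Upstream on the opposite strand lay 7 members, all in the GENCODE gene Hand2os1, the divergent long non-coding RNA also called Upperhand. The member nearest to Hand2 (chr8:57319542-57320176, 807 bp away, at an exon of Hand2os1) had 6.72, 9.24 and 7.74 FPKM. Farther upstream, in the body of Hand2os1 but at no exon, XLOC_043605 (chr8:57311237-57311457) had 21.9, 14.8 and 40.9 FPKM. In Hand2os1 as a whole there were 13 members, with medians of 6.72, 4.11 and 9.56 FPKM. Hand2 itself had 29.9, 42.1 and 9.12 FPKM, so the median of these members was highest in Adult, where the gene was lowest.

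Near other transcription factor genes the levels were lower. Nkx2-5, a homeodomain factor of the cardiac lineage, was followed on its strand by an 8832 nt member (chr17:26826819-26835650) with 1.61, 0.572 and 5.11 FPKM, while the gene had 46.8, 61.1 and 9.37 FPKM. A 1358 nt member upstream of Nkx2-5 on the same strand had 3.78, 2.08 and 1.10 FPKM. These neighbours of Nkx2-5 were thus highest at opposite ends of the series. Upstream of Gata4, a zinc-finger factor, a 5964 nt member on the opposite strand had 0.973, 1.25 and 1.23 FPKM. Upstream of Tbx5, the T-box factor of the left ventricle and forelimb, a same-strand member (chr5:119830229-119830714) had 1.47 FPKM at E10.5 and was listed at 0 in the others.

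At the contractile genes the highest members lay next to Myh7, the slow myosin heavy chain of the fetal ventricle. Upstream of Myh7, 3 members on its opposite strand followed each other over chr14:54995268-55005141. XLOC_013289 (681 nt) was listed at 0 at E10.5 and had 0.240 FPKM at E13.5 and 12.5 in Adult. XLOC_013290 (5884 nt) had 0.721, 0.269 and 23.8 FPKM, and XLOC_013291 (3150 nt) had 0.156, 0.222 and 15.3 FPKM. All 3 were above 12 FPKM in Adult and under 1 FPKM in both embryonic libraries, and XLOC_013290 and XLOC_013291 changed by 3.85 and 3.82 on the log2(FPKM + 1) scale from E10.5 to Adult. The locus that holds Myh7 is joined with Myh6, so its values are not those of Myh7 alone. It had 1029 FPKM at E10.5 and 1329 at E13.5 and was listed at 0 in Adult, which can be a failed estimate. No change of Myh7 itself can be read from these values.

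The last 50 nt of these 3 members are shown because that is the window in which AATAAA was searched, and it occurred in none of them (GRCm38, plus strand, 5′ to 3′).
XLOC_013289 (chr14:54995899-54995948): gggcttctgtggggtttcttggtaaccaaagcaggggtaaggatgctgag
XLOC_013290 (chr14:55001834-55001883): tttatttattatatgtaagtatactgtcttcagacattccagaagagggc
XLOC_013291 (chr14:55005092-55005141): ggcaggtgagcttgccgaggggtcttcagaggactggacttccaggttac

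Other contractile and excitation genes had members near the limit of 1 FPKM. Upstream of Tpm1, a tropomyosin of the thin filament, 3 opposite-strand members had 0 to 0.158, 0 to 0.267 and 1.14 to 1.43 FPKM. Upstream of Ttn, the sarcomeric spring protein, 3 same-strand members had 0.890 to 1.97 FPKM at E10.5, were listed at 0 at E13.5 and had at most 0.0868 FPKM in Adult. The locus of Ttn was at 428 and 46.8 FPKM in the embryo and listed at 0 in Adult. Behind Atp2a2, the sarcoplasmic reticulum calcium pump, a 2565 nt member starting 57 bp past the gene had 2.36, 0.179 and 0.323 FPKM, although the gene had 337, 228 and 2456 FPKM. Behind Ryr2, the calcium release channel, 2 members had 0.519, 0.101 and 2.96 FPKM and 1.28, 0.0504 and 1.16 FPKM, with 73.1, 18.8 and 281 FPKM for the gene. From E10.5 to Adult the first Ryr2 member was higher in Adult, as was its gene, whereas the Atp2a2 member was lower in Adult and its gene higher.

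Among proliferation genes, 3 members followed Cdk1, the mitotic kinase, on its strand. They had 0.756 to 1.43, 0.149 to 0.459 and 0 to 0.131 FPKM. Cdk1 had 57.9, 80.5 and 0.284 FPKM, so the gene was highest at E13.5 and its downstream members at E10.5. Upstream of Lin28b, an RNA-binding protein of embryonic tissue, 2 same-strand members had 2.82 and 1.47 FPKM at E10.5, at most 0.0706 at E13.5 and 0 in Adult, and both lay in the longer GENCODE body of that gene. Lin28b had 9.31, 2.20 and 0.346 FPKM, the same order.

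The highest levels were held by the copies of coding transcripts. XLOC_047825, the 102 nt match to Rps3 inside the processed pseudogene Gm14513, had 14097, 23166 and 3017 FPKM. The Rps3 locus had 486, 775 and 183 FPKM. XLOC_046173, the match to Rps14 at 259 bp behind Zw10, had 2364, 3941 and 499.9 FPKM, where Rps14 had 105, 147 and 22.7 FPKM. Both members and both genes were highest at E13.5 and lowest in Adult. A fragment from a near-identical pair can be assigned to either copy, and the handling of such fragments is not stated, so the levels of these members are uncertain. FPKM is also coarse at this length. Under 150 nt the lowest values above 0 were 12.6, 24.7 and 2.37 FPKM in the E10.5, E13.5 and Adult libraries. Whether these members exceeded their genes in RNA cannot be read from the values.

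Over all 891 copies the medians were 12.3, 12.3 and 5.66 FPKM, and 90.5%, 83.5% and 79.1% of them reached 1 FPKM. The other members reached it in 21.6%, 4.22% and 34.3% of cases. Of 821 copies whose gene had a coding locus, 37.5%, 33.5% and 29.2% had a higher FPKM than that gene's locus. The 1259 members that were copies or lay at pseudogene exons held 81.0%, 93.1% and 61.1% of the members' FPKM sum, and the members held 19.2%, 16.3% and 14.4% of the FPKM sum of all loci. Of the 50 members with the highest value in any library, 46 were such copies or pseudogenes and 24 were under 200 nt. These shares and sums carry the coarse values of the short loci. From E10.5 to Adult copies and pseudogenes had a median change of -0.81 (-0.44 after rescaling), and the other members one of 0.78 (1.00 after rescaling). Relative to the coding median these were -0.41 and 1.17.

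**Figure D5:**
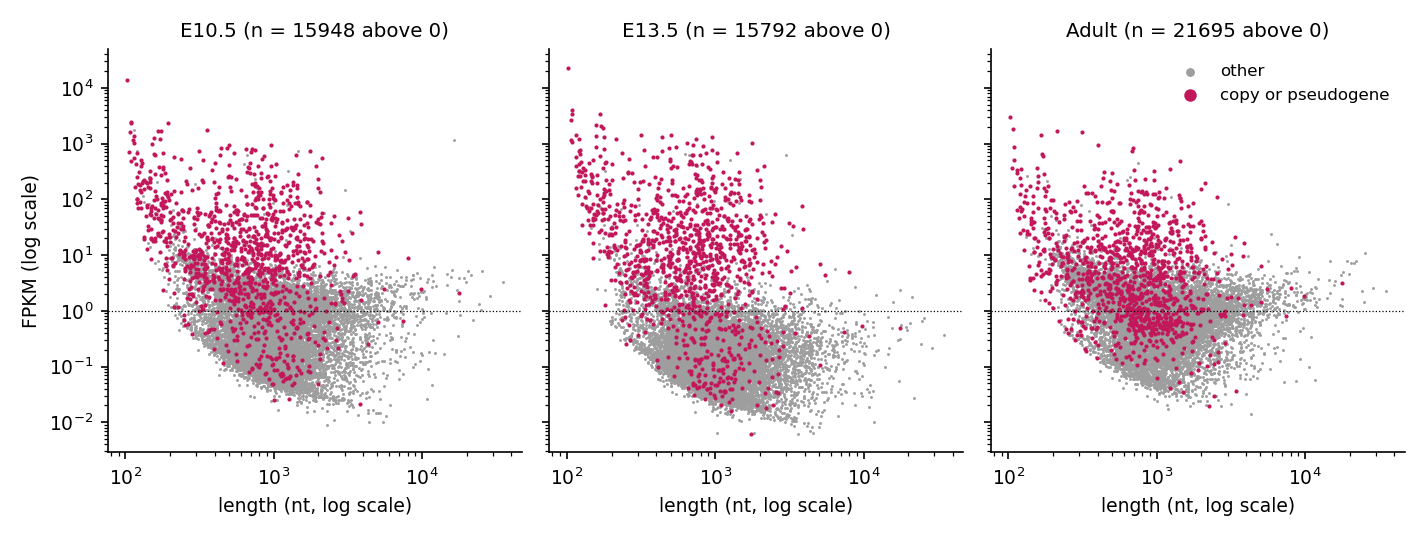
FPKM of every member with a value above 0 (vertical log axis) against its length (horizontal log axis) in each library, with copies of coding transcripts and members at pseudogene exons in magenta, other members in grey and a dotted line at 1 FPKM. The magenta points hold most values above 100 FPKM, and the lower edge of the cloud rises toward short lengths, where the lowest value above 0 reaches 12.6, 24.7 and 2.37 FPKM under 150 nt.

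The largest changes of single members were mostly those of very short loci listed at 0 in a library. The largest rise from E10.5 to E13.5 and to Adult was that of XLOC_034450, a 121 nt match to Anapc5 that was listed at 0 at E10.5 and had 1192 FPKM at E13.5 and 184 in Adult. The largest fall was that of XLOC_048550, a 114 nt member on the Y chromosome with 1755 FPKM at E10.5 that was listed at 0 in the other libraries. The antisense match to Sumo2, XLOC_007025 (112 nt), had 1151 FPKM at E10.5 and was also listed at 0 in both others. Of the 472 members lower from E10.5 to Adult by the limit of 2, 240 were above 0 in both libraries, as were 142 of the 420 higher ones. Among members of 300 nt or more, 296 were higher and 297 lower.

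A rise without a match to a coding transcript was seen at XLOC_008096 (193 nt), 697 bp upstream of Lasp1 on the opposite strand. It was listed at 0 at E10.5 and had 9.17 FPKM at E13.5 and 49.4 in Adult. Lasp1, a LIM and SH3 protein of the actin cytoskeleton, had 13.0, 15.3 and 8.60 FPKM, so the member and the gene did not share the rise. XLOC_007865 (175 nt), 169 bp upstream of the kinase gene Nlk on its strand, had 29.3 FPKM in Adult and was listed at 0 in both embryonic libraries, beside 18.1, 14.1 and 9.68 FPKM for Nlk.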

How the data were processed

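Total RNA libraries of mouse ventricle were analysed, 1 for each of 3 stages. Per the submitters' processing notes, TopHat, Bowtie and Cufflinks were used with mm10. The study names Tophat2 and assembly by Cufflinks both guided and not guided by UCSC transcripts. The authors deposited FPKM values per merged locus, together with the exons of the merged transcripts. Full version numbers and other options are not given in the sources used here, nor is the handling of multiply mapped fragments. Of 185861 coding introns, 185154 (99.6%) were also introns of GENCODE M21 on GRCm38, the assembly of mm10. All value columns of the table were used, and 9 loci without a transcript in the annotation were not analysed here.

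Members were found by class code and exon number. Position used a window of 10000 bp, expression a limit of 1 FPKM, and changes the difference of log2(FPKM + 1) with a limit of 2. Copies were found with blastn 2.17.0 against GENCODE coding transcripts (90% identity, 80% of the member, seeds outside masked repeats, genes within 50000 bp left out). Sequence came from GRCm38.p6. Shares have 95% Wilson intervals and medians binomial intervals, which cover the sampling of loci only. No test was made between stages. Calculations used Python 3.11.15, numpy 2.4.6, pandas 2.3.3, scipy 1.17.1 and matplotlib 3.10.9, and placement and calls were tested on simulated data.

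Named loci were, per position, the 3 with the highest level. To these were added the largest rises and falls (5 each from E10.5 to Adult, 3 each for the other contrasts), the 5 genes with most downstream members, and members near the listed genes. The members and lists were chosen with earlier results of these data known. Alternatives were windows of 3000 and 50000 bp, other limits and pseudocounts, rescaling (factors 1.07, 1.19 and 0.804) and filters on length, zeros and copies.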

Additional observations from a re-analysis of the deposited data

How the results depend on the processing

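Shares by position and strand, median length, counts and medians of expressed members, counts of changed members and shares of downstream pairs were recalculated, 169 values in all. The other values of the text were not, apart from the rescaled ones printed beside them. Of the values that answer a comparison, 61 stayed within the interval or within 1.5 times the count and 75 moved. Of the others, 19 stayed and 14 moved. The filters on copies and on a length of 300 nt were chosen after seeing the data. No paired analysis was possible because no stage was measured in more than 1 library, so no replicate could be left out either.

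With windows of 3000 bp, 50000 bp, and with distances to the nearest expressed coding locus, 8.61%, 28.8% and 12.98% of members were upstream, 6.25%, 29.1% and 14.96% downstream, and 84.9%, 41.9% and 71.9% distant. The shares on the strand of the gene were then 31.6%, 49.4% and 36.6% upstream and 69.1%, 73.6% and 82.9% downstream. The median length was 762 nt for members at 1 FPKM or more in a library and 898 nt without copies and pseudogene exons.

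At a limit of 2 FPKM, 2648, 1108 and 2951 members were expressed at E10.5, E13.5 and Adult, which takes Adult and E10.5 close together. At 0.5 FPKM there were 2809 at E13.5 and 16155 in Adult. Without copies and pseudogene exons 776 remained at E13.5.

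The median of expressed downstream members was 1.66, 2.71 and 1.43 FPKM in the E10.5, E13.5 and Adult libraries. It was 0.806, 0.0947 and 0.546 FPKM without the filter on low values, and 1.60, 1.71 and 1.37 FPKM without copies and pseudogene exons. At E13.5 it was 2.15 and 4.62 FPKM with the short and the long window. For distant members it was 2.15, 8.01 and 1.66 FPKM, then 0.104, 0.0558 and 0.815 FPKM without the filter and 1.80, 1.49 and 1.56 FPKM without copies and pseudogene exons, so that E13.5, the highest library as reported, became the lowest under both. The short window gave 2.004 and 6.67 FPKM for distant members at E10.5 and E13.5, the long window 2.48 FPKM at E10.5, and rescaling 1.72 FPKM in Adult.

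Counts of changed members depended on the scale most, and from E10.5 to Adult the balance turned: lower members were in the majority as reported (420 higher and 472 lower), and higher ones with a pseudocount of 0.1, a limit of 1, rescaling or without copies and pseudogene exons (400 and 273). The shares over all loci were calculated for the reported setting only, so whether all loci turned alike was not tested. On rescaling, the median change of all loci in this contrast also moved, from -0.09 to 0.46. With a pseudocount of 0.1 there were 334 higher and 4100 lower from E10.5 to E13.5, 6359 and 568 from E13.5 to Adult, and 4840 and 2702 from E10.5 to Adult. With a limit of 1 there were 208 and 3429, 5322 and 702, and 4382 and 2764. Rescaling gave 1132 and 131 from E13.5 to Adult and 719 and 370 from E10.5 to Adult. Without members listed at 0 there were 15 and 212 from E10.5 to E13.5, 312 higher from E13.5 to Adult, and 142 and 240 from E10.5 to Adult. Without copies and pseudogene exons there were 17 higher from E10.5 to E13.5, 42 lower from E13.5 to Adult and 273 lower from E10.5 to Adult, and from 300 nt there were 11, 140 and 297.

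The share of downstream same-strand pairs moving together from E10.5 to E13.5 was 67.0% after rescaling and 56.3% without the filter. From E13.5 to Adult it was 50.7% and 44.8% with the short and the long window and 62.9% after rescaling, which takes it from below to above an even split, as the short window does. From E10.5 to Adult it was 75.2% with the long window, 71.9% after rescaling and 71.5% without the filter. The causes of these shifts were not tested.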

Other observations

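Members were sparse on the sex chromosomes. There were 2.27 members per Mb on the X chromosome and 0.392 on the Y chromosome, against 7.01 to 11.7 (median 9.20) on the autosomes. Coding loci were at 4.99 per Mb on X, within the autosomal range of 4.91 to 12.9, and at 0.926 per Mb on Y, below it. At E10.5 the X chromosome had 1.37 members per Mb at 1 FPKM or more, also within the autosomal range of 1.35 to 3.15, whereas in Adult it had 1.19, below the range of 2.27 to 5.12. The median level of the 388 members on X was 1.36 FPKM at E10.5, compared with 0.106 to 0.300 FPKM on the autosomes. It was above the autosomes in the other libraries as well. At E13.5 it was 0.192 against 0.0582 to 0.118 FPKM, and in Adult 1.12 against 0.661 to 0.887 FPKM. The sex of the animals was not taken into account, so for X and Y sex and stage cannot be told apart.

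The 57 members without a strand reached 1 FPKM in 33 cases (57.9%) in Adult, in 2 at E10.5 and in 1 at E13.5. The 50 members within or overlapping the span of a coding transcript, all on its opposite strand, reached it in 13, 7 and 12 cases at E10.5, E13.5 and Adult. The highest of these was XLOC_023281, a 326 nt match to Ube2d3 within or overlapping the span of Spopl, with 225, 212 and 176 FPKM. It was followed by XLOC_003264, at the small nucleolar RNA gene Rnu3a, with 104, 87.1 and 17.9 FPKM.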
